A study of Mus musculus with 8 samples.

Results

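Keratins are the proteins of the intermediate filaments of epithelial cells, and their 48 genes with a probe set on the array are described here, out of 18195 genes measured. A member is any gene whose platform symbol is Krt followed by a digit, taken at the probe set that was brightest on average over the 8 arrays. By the layer or structure in which they are best known, 5 members are simple epithelial keratins, 21 are keratins of the basal and upper layers of stratified epithelium, 20 are hair keratins, and Krt222 and Krt88 were placed in none of these. Of the 48, 31 lay above the level filter (the 40th percentile of all probe sets) and were tested: all 5 simple epithelial, 18 of 21 basal and upper layer and 8 of 20 hair keratins.

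RNA came from tissue labelled as palate, its rear part, of BALB/c mouse pups on postnatal day 1. Every dam, controls included, carried a minipump under the skin through pregnancy. It delivered saline in the control group and nicotine at 1.5, 3.0 or 4.5 mg/kg/day in the others, and each of the 4 groups had 2 arrays that the labels call biological replicates. The labels give 2 pups, without saying whether per array or per group and from how many litters, so p-values measure only the spread between these samples.

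A keratin filament is built from pairs of 1 acidic (type I) and 1 basic (type II) keratin. Single-layered epithelia such as those of gut, lung and glands use Krt8 and Krt18 with Krt7, Krt19 or Krt20. In skin and the lining of the mouth the dividing basal cells make Krt5 and Krt14, and cells moving upward switch to Krt1 and Krt10 or, in softer mucosa, to Krt4 and Krt13. Krt6, Krt16 and Krt17 are known from activated epithelium and appendages, and hair keratins from the hair shaft and its root sheaths. In the RefSeq gene table (GRCm38.p6) 24 of the members lie on chromosome 11 and 24 on chromosome 15, and Krt8 and Krt18 are neighbouring coding genes on chromosome 15.

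Start-site sequences of 32 of the 48 keratins were found in RefSeq (GRCm38.p6), each running from 250 bases before to 50 bases after the start. None was found for Krt19, whose change averaged over the doses (-2.62) was close to that of Krt20 (-2.66). The sequences of Krt8, Krt18 and Krt20, which had the largest falls in that average, are printed with that of Krt10, an upper layer keratin that did not fall. They lie at chr15:102004293-102004592 (minus strand), chr15:102027966-102028265 (plus strand), chr11:99438104-99438403 (minus strand) and chr11:99389315-99389614 (minus strand). Capitals mark matches, on either strand, to TATAAA (the TATA box), GGGCGG (the GC box), CCNCNCCC (a CACCC-type box, which can overlap a GC box) or TGANTCA (the AP-1 site).
Krt8: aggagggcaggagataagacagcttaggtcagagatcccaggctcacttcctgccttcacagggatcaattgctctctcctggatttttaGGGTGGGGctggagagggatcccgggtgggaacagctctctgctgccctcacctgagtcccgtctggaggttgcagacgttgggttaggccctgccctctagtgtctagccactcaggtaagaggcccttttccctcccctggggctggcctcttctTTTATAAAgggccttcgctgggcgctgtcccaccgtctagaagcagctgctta
Krt18: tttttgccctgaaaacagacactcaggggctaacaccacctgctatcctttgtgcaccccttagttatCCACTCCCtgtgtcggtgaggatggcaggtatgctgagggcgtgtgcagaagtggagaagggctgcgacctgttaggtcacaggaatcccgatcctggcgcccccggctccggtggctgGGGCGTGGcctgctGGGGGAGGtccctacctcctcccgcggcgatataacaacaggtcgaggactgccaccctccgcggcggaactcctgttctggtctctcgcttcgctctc
Krt20: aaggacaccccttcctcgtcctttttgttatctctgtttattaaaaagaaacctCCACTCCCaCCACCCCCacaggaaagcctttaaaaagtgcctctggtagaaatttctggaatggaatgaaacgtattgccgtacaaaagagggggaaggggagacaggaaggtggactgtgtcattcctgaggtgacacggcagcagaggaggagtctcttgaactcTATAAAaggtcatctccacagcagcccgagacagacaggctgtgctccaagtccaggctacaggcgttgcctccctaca
Krt10: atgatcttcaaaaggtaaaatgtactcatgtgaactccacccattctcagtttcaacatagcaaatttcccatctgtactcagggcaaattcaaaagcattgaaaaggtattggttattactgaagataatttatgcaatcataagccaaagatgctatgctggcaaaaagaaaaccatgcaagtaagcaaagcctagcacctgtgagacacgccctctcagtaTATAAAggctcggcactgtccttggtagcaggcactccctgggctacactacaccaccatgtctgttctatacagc
Krt8, Krt20 and Krt10 each hold TATAAA, in Krt8 as 2 overlapping matches on opposite strands, while no match is in the Krt18 window. CCNCNCCC occurs once in Krt8, 3 times in Krt18, 2 times in Krt20 and nowhere in the Krt10 window. Among the 32 keratins, 18 hold TATAAA, 2 GGGCGG, 14 CCNCNCCC and 1 TGANTCA. Of all 32817 windows of this length in the table, 13.6% hold TATAAA, 35.6% GGGCGG, 49.5% CCNCNCCC and 7.81% TGANTCA. A match is a description of the letters and names no bound factor.

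The arrays differed in genes of internal organs, and this is given before the keratins because simple epithelial keratins belong to such organs. Summed intensities of 13 measured stomach lining genes were 11614 and 11887 in the saline arrays and 250.1 to 440.3 in the nicotine arrays. For 17 intestinal lining genes the sums were 25027 and 16732 in saline, 1241 and 1112 at nicotine 1.5, and 152 to 229 at the higher doses. Liver genes (13) summed to 13382 and 42376 in saline and to 21498 in nicotine 1.5 replicate 2, against 101 to 143 in the other arrays. Kidney genes (9) reached 3140 in saline replicate 2 and at most 222 elsewhere. Lung genes (10) summed to 642 and 303 in saline and to 169 in nicotine 1.5 replicate 1, but to 13114 in nicotine 1.5 replicate 2, 15130 and 5266 at 3.0, and 1569 and 2791 at 4.5. Krt76, the keratin named for the palate, read 9.51 and 15.8 in saline, 16 and 4.68 at nicotine 1.5, 12.3 and 12.3 at 3.0, and 12.4 and 3.04 at 4.5. All of these Krt76 readings lie below the array medians of 20.7 to 25.4. Of 10 oral and palatal epithelium genes listed, 7 were measured and 3 (Pitx1, Shh and Sox2) lay above the filter. Their changes averaged over the doses were -0.05, -0.36 and -1.05, none of them called, beside 10.2% of all genes.

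**Figure D1:**
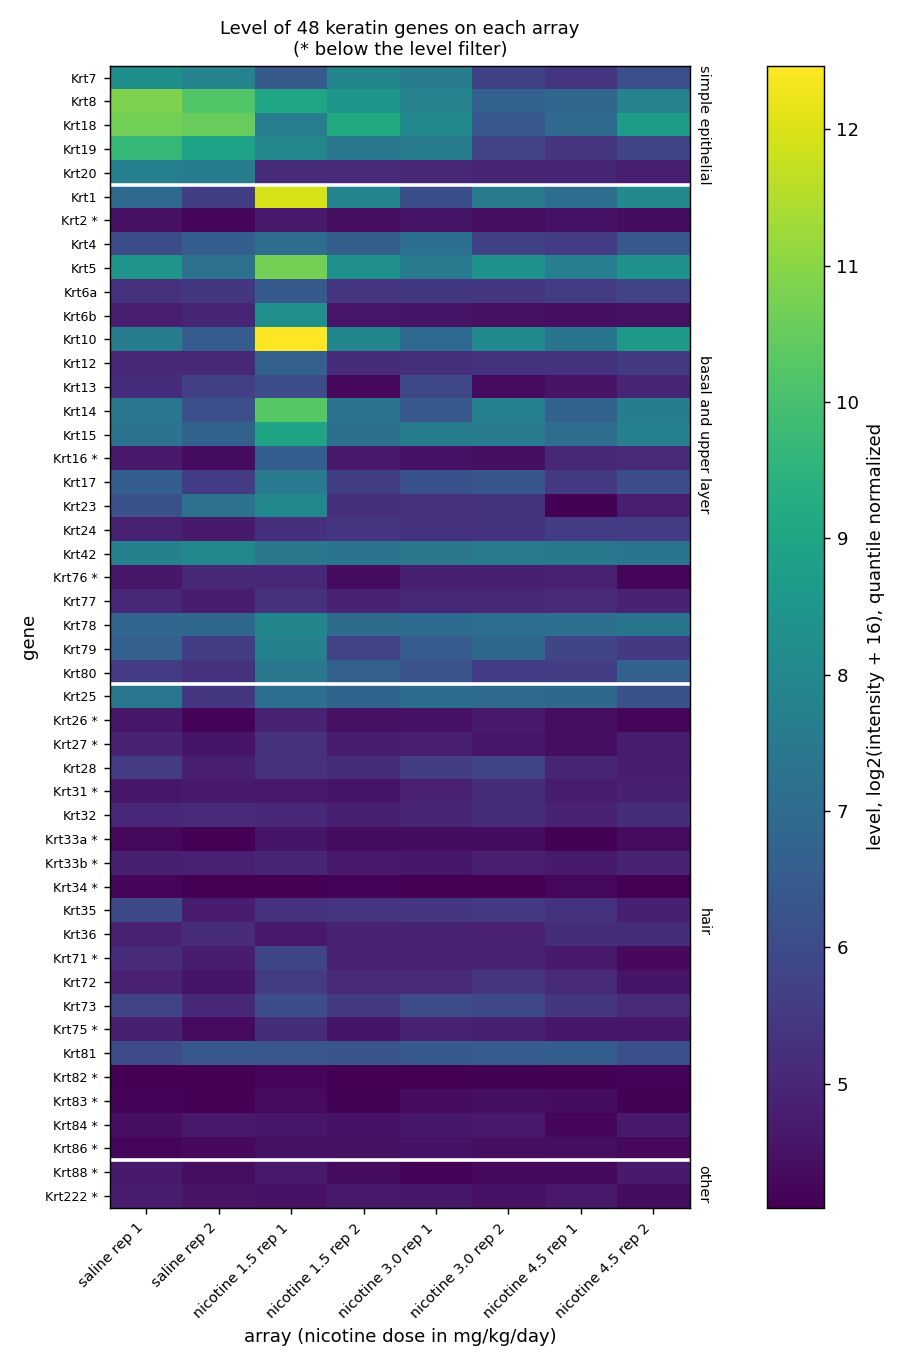
Levels of the 48 keratin genes (rows, in their groups) on the 8 arrays (columns), as log2(intensity + 16) after quantile normalization, with the colour scale at the right; an asterisk marks the 17 genes below the level filter. The simple epithelial keratins are brightest in both saline columns, except that Krt7 in nicotine 1.5 replicate 2 is above saline replicate 2, and most basal and upper layer keratins in nicotine 1.5 replicate 1; colours of different genes are read from different probes and are compared along a row only.

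Simple epithelial keratins were lower in the nicotine groups. Averaged over the 3 doses, Krt8, Krt18, Krt19 and Krt20 fell, with log2 changes of -2.73, -2.79, -2.62 and -2.66 (6.16- to 6.91-fold lower), and Krt7 was at -1.50 without passing the test. These 4 of 5 tested simple keratins stand beside 5.4% of all 13587 tested genes that fell in the same comparison, and the median change of the 5 was -2.66 against 0.07 over all genes. The test was limma's moderated test over all 8 arrays with Benjamini-Hochberg adjustment over all tested genes, two-sided, and a gene was called at an adjusted p under 0.05.

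Krt8, the type II partner of simple epithelial filaments, read 1726 and 1158 in saline replicates 1 and 2. It read 454 and 347 at nicotine 1.5, 209.5 and 86.1 at 3.0, and 94.95 and 194 at 4.5. All 6 nicotine arrays lay below both saline arrays, as for 12.6% of all tested genes. Its mean change was -2.73 ± 0.39 (SE; 2 saline and 6 nicotine arrays; limma, adjusted p = 0.0113). Single-dose changes were -3.26 ± 0.47 at 3.0 (limma, adjusted p = 0.0199) and -3.18 ± 0.47 at 4.5 (limma, adjusted p = 0.0165), both called, and at 1.5 it was -1.76 ± 0.47 (limma, adjusted p = 0.105). Both other Krt8 probe sets gave mean changes of -2.81 and -2.80, close to the first, although probe sets of 1 gene on the same arrays are not replicates. The mean-dose call held in all 19 alternative analyses (limma, adjusted p 0.0107 to 0.0432). The calls at 3.0 and 4.5 were lost when either array of that dose was left out (limma, adjusted p 0.0522 and 0.147 at 3.0 without replicate 1 and 2, and 0.0918 and 0.0544 at 4.5).

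Krt18, the type I partner of Krt8, read 1576 and 1440 in saline, 177 and 554 at nicotine 1.5, 253 and 64.4 at 3.0, and 103 and 377 at 4.5. The groups did not overlap, but the nicotine replicates differed from each other by more than the saline replicates did. Its mean change was -2.79 ± 0.64 (limma, adjusted p = 0.0410). At the single doses it was -2.19, -3.40 and -2.78, none of them called (limma, adjusted p 0.180, 0.0657 and 0.0769). The mean-dose call held in 9 of 19 alternative analyses (limma, adjusted p 0.0363 to 0.127). Among those that ended it was the omission of any array other than nicotine 1.5 replicate 2 or nicotine 4.5 replicate 2, with changes of -3.04 to -2.48.

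Krt19, the smallest keratin and a type I partner in ducts and gut, showed 793 and 509.9 in saline, 218 and 163 at nicotine 1.5, 186 and 38.0 at 3.0, and 23.9 and 38.2 at 4.5. Its mean change was -2.62 ± 0.48 (limma, adjusted p = 0.0233), and at 4.5 it fell by 3.69 ± 0.59 (limma, adjusted p = 0.0197). Changes of -1.60 at 1.5 and -2.58 at 3.0 did not pass (limma, adjusted p 0.189 and 0.0639). The 4.5 arrays lay below those at 1.5. Between 2 nicotine doses 0 of 31 keratins were called in each of 3 comparisons, as were 0 of all genes (limma). An unadjusted p under 0.05 was held by 3, 3 and 1 keratins (limma). The lowest adjusted p was 0.373, for Krt8 at 3.0 against 1.5 (limma). Without saline replicate 1 or 2, or nicotine 4.5 replicate 1 or 2, the mean-dose p of Krt19 was 0.0796, 0.0579, 0.0625 and 0.0506 (limma, adjusted; range over 19 alternatives 0.0103 to 0.113). The call at 4.5 was lost without either 4.5 array (limma, adjusted p 0.113 and 0.0842).

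Krt20, a type I keratin of the intestinal and gastric lining and of the bladder, had close replicates. Its intensities were 209.7 and 189 in saline, 18.9 and 19.2 at nicotine 1.5, 16.3 and 15.6 at 3.0, and 14.2 and 11.1 at 4.5. Every nicotine reading was below the median intensity of its array, so that the fold on the log2(intensity + 16) scale understates the change. It was the only keratin called at all 3 doses, with changes of -2.55 ± 0.16, -2.65 ± 0.16 and -2.80 ± 0.16 (limma, adjusted p 0.000972, 0.000681 and 0.000562). Averaged over doses it fell by 2.66 ± 0.13 (limma, adjusted p = 0.000183), and the call held in all 18 alternatives in which Krt20 was tested. In the RefSeq table Krt20 lies between Krt12 and Krt23, neither of which was called.

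Krt7, a type II keratin of ducts, lung and mesothelium, was the exception. Values of 299 and 224 in saline stood against 68.3 and 235 at nicotine 1.5, 181 and 35.5 at 3.0, and 23.1 and 50.9 at 4.5. Nicotine 1.5 replicate 2 lay between the saline arrays, and the groups overlapped. The mean change of -1.50 ± 0.57 was not called (limma, adjusted p = 0.133). The highest nicotine readings of Krt7, in nicotine 1.5 replicate 2 and 3.0 replicate 1, were on the arrays with the highest lung gene sums.

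**Figure D2:**
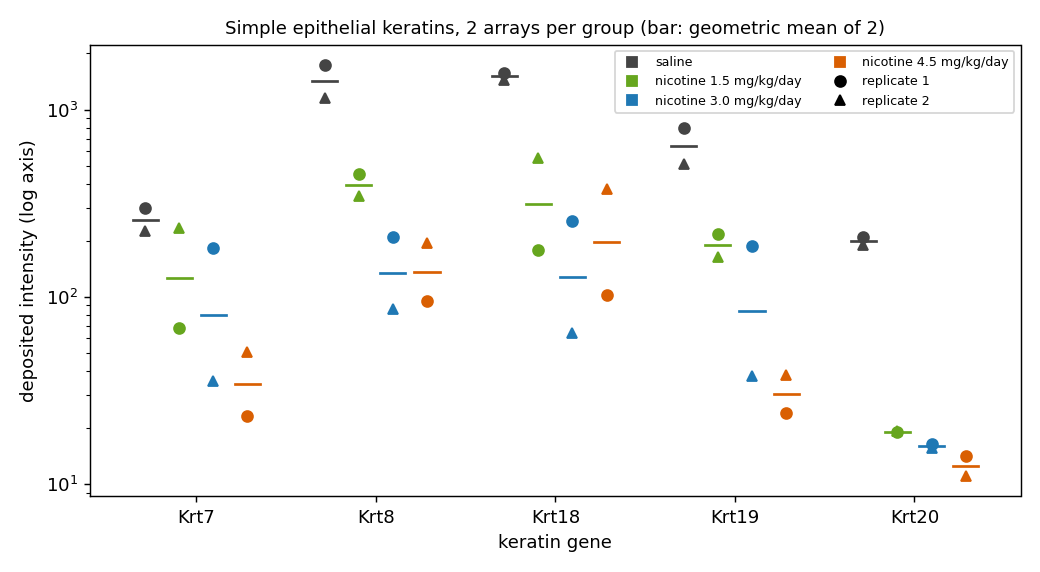
Deposited intensity (log axis) of the 5 simple epithelial keratins by dose group, with a symbol for each array (circle for replicate 1, triangle for replicate 2) and a bar at the geometric mean of 2. For Krt8, Krt18, Krt19 and Krt20 every nicotine symbol lies below both saline symbols; for Krt7 the nicotine 1.5 replicate 2 symbol (235) lies between them.

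Over dose, Krt8 changed by -0.74 ± 0.13 and Krt19 by -0.80 ± 0.11 log2 units per mg/kg/day (limma slope, adjusted p 0.0499 and 0.0475), 2 of 31 keratins beside 0.802% of all genes. Slopes of Krt18 (-0.64), Krt20 (-0.57) and Krt7 (-0.49) did not pass (limma, adjusted p 0.101, 0.0641 and 0.0727). For Krt20 the step lay between saline and the lowest dose. The slope calls of Krt8 and Krt19 rest close to the threshold and held in 6 and 7 of 19 alternatives, ending for example without saline replicate 1 (limma, adjusted p 0.167 and 0.159). In the F test for any difference among the 4 groups Krt8 and Krt20 passed (limma, adjusted p 0.0449 and 0.00141), beside 1.97% of all genes.

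Genes of simple epithelium other than keratins fell in the same comparison. In a list of 16 tested members, 9 fell and none rose, beside 5.4% of all genes that fell, with a median change of -1.70 against 0.07 over all genes. The protease inhibitors Spint1 and Spint2, the protease St14 and the transcription factor Elf3 had the smallest p, with changes of -2.11, -2.25, -1.56 and -2.36 (limma, adjusted p 0.00284, 0.0035, 0.00327 and 0.00284). Summed over the list, intensity was 7775 and 5197 in saline, 2236 and 1755 at nicotine 1.5, 1525 and 862 at 3.0, and 690.1 and 907 at 4.5. Changes over the 16 ran from -3.62 to 0.36.

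Markers of digestive lining stood in the same arrays as high simple keratins. Among stomach genes 10 of 11 tested fell, beside 5.4% of all genes, among them Cym, Gkn2, Pga5 and Tff1 (-7.79, -4.55, -5.90 and -3.62). The prochymosin gene Cym read 5168 and 4999.9 in saline and 5.20 to 11.9 in the nicotine arrays. Of the 16 intestinal genes tested 14 fell, against the same 5.4%, led by the lipoprotein gene Apoa4, the fatty acid carrier Fabp2, Mttp and Rbp2 (-6.57, -6.50, -5.07 and -4.92). Rbp2 was at 1, close to the lowest reading of any probe set, in all 4 arrays of nicotine 3.0 and 4.5.

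Other organ lists moved less uniformly. Liver had 2 of 13 that fell, beside the 5.4% of all genes (Ttr and Afp, -6.09 and -6.25), with Alb (-5.82) and Hpx (-4.65) not called. Kidney had 0 of 7 called, beside 10.2% of all genes called in either direction (Slc12a1 -2.87, Slc34a1 -2.79, Slc22a6 -2.27 and Aqp2 -2.55). Lung had 0 of 9 called, beside the same 10.2%, with Scgb3a2, Scgb1a1, Sftpc and Sftpb at 4.63, 4.65, 4.68 and 3.11. With lists this short, such counts cannot be told from that share. Of 5 mesothelium genes 1, Wt1, fell (-1.82), beside 5.4% of all genes. Lrrn4, Upk3b and Upk1b were at -1.003, -1.55 and -2.38. Mesothelium sums were 1071 and 441 in saline, 199 and 381 at 1.5, 297 and 71.7 at 3.0, and 48.2 and 97.6 at 4.5.

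RNA integrity was read from the actin control probes as the 3' over the 5' intensity. In the saline arrays this quotient was 1.70 ± 0.07 (SD, n = 2), and it was 1.29 ± 0.13 for nicotine 1.5, 1.10 ± 0.06 for 3.0 and 1.05 ± 0.14 for 4.5 (SD, n = 2 each). The part of organ tissue and of RNA integrity in the falls of the simple keratins was not tested. In bulk tissue, fewer cells of a type and less RNA per cell cannot be told apart. Saline replicate 2 and nicotine 1.5 replicate 2 were the arrays highest in liver genes. Without them, a choice made after seeing the data, Krt18 was at -3.14 and Krt19 at -2.90. The 1 saline array left still summed to 11614 for stomach, 25027 for intestinal and 13382 for liver genes. That fit therefore cannot separate organ tissue from the falls.

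**Figure D3:**
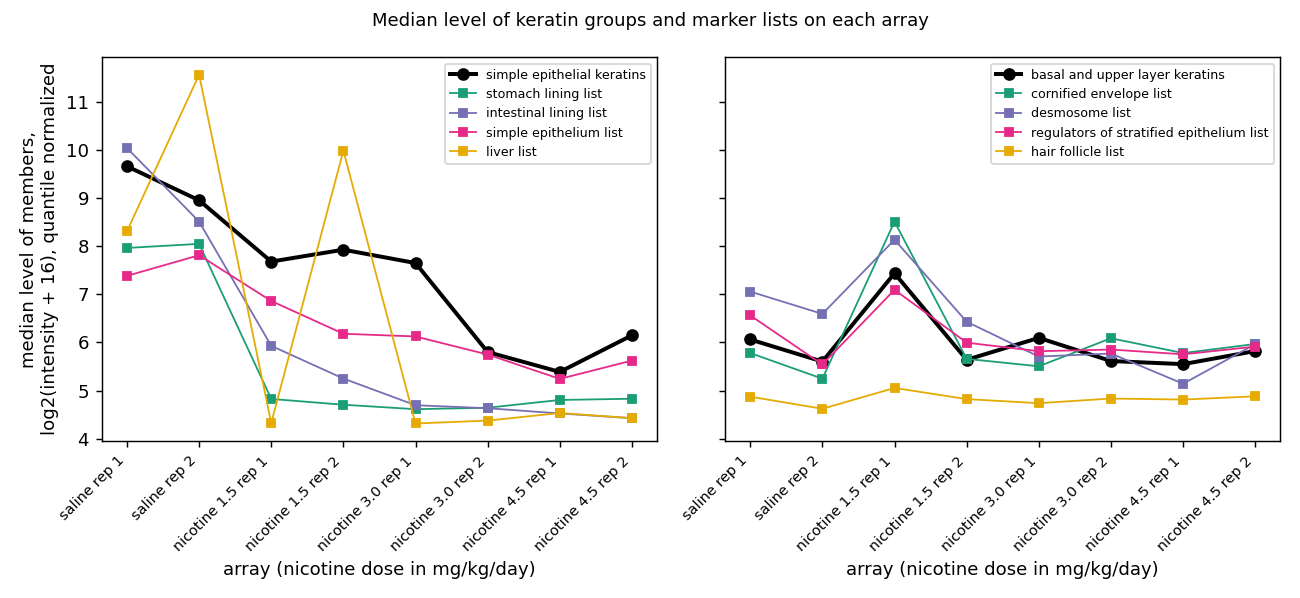
Median log2(intensity + 16) of keratin groups (black) and marker lists (colours) on each array, simple epithelial keratins with organ lists at the left and basal and upper layer keratins with stratified epithelium lists at the right. At the left the simple keratin line is highest in the 2 saline arrays (9.65 and 8.95) and lowest in nicotine 4.5 replicate 1 (5.39); at the right the lines peak together in nicotine 1.5 replicate 1, the keratin median at 7.43. Lines join the arrays only to guide the eye.

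No basal or upper layer keratin was called as lower. Of 18 tested, 15 had a mean change above 0, as had 7602 of all 13587 genes, with a median of 0.34 against 0.07 over all genes. Of the 18, 1 was called, Krt24, which rose, a share close to the 4.75% of all genes that rose. The widest difference was between arrays: nicotine 1.5 replicate 1 was the highest array for 18 of the 21 members, 15 of them above the filter. The other 3 were Krt4, Krt24 and Krt42. Krt6b, among the 15, passed the filter only through that array. Nicotine 1.5 replicate 1 was also the highest array for 9 of 20 hair keratins. How many of all genes were highest there was not counted.

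Basal layer keratins were well above the filter on every array. Krt5, the type II basal keratin, read 347 and 139 in saline, 1418 and 303 at nicotine 1.5, 176 and 312 at 3.0, and 183 and 297 at 4.5. Its type I partner Krt14 read 163 and 56.8 in saline, 1043 and 145 at nicotine 1.5, 68.6 and 190.2 at 3.0, and 81.1 and 169 at 4.5. For Krt15, a type I keratin of basal and stem cells, the readings were 152 and 96.9, 438 and 135, 179 and 165, and 114 and 186. In all 3, nicotine 1.5 replicate 1 stood above every other array, and the other nicotine arrays overlapped saline. Mean changes of 0.66 ± 0.65, 0.91 ± 0.81 and 0.66 ± 0.46 were not called (limma, adjusted p 0.523, 0.476 and 0.359), and without that array they were 0.26, 0.41 and 0.36. A second Krt14 probe set above the filter gave 0.75.

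Among upper layer keratins of the epidermis, Krt1 and Krt10 were set apart by 1 array. Krt1 read 119.8 and 34.5 in saline, 3884 and 221 at nicotine 1.5, 50.7 and 167 at 3.0, and 116 and 236.5 at 4.5. Krt10, its type I partner, read 196 and 79.97 in saline, 5367 and 236 at nicotine 1.5, 112 and 249.98 at 3.0, and 139.9 and 349 at 4.5. On nicotine 1.5 replicate 1 they were 16.4 and 15.4 times the next highest array. Between the other 7 arrays saline replicate 2 was lowest for both and nicotine 4.5 replicate 2 highest. Their mean changes of 1.81 ± 1.04 and 1.49 ± 1.10 were not called (limma, adjusted p 0.278 and 0.389), and without nicotine 1.5 replicate 1 they were 1.12 and 0.74. With nicotine 1.5 replicate 2 left out instead, that dose rested on this 1 array, assumed to vary like the other groups. Of 19 alternatives, Krt1 and Krt10 passed the threshold only in that fit, and no rise is read from it.

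Krt24 was the member that rose. This type I keratin of differentiating epithelium read 15.0 and 9.57 in saline, 21.9 and 29.7 at nicotine 1.5, 22.9 and 22.9 at 3.0, and 29.8 and 28.8 at 4.5. All nicotine arrays lay above both saline arrays, as for 16.8% of all genes. The nicotine readings are near the array medians and both saline readings are below them. Its saline levels (log2 4.87 and 4.69) lay under the filter level of 4.94, against a nicotine mean of 5.41. Krt24 thus passed the filter only through the nicotine arrays, though the mean-dose call was kept with no level filter. Its mean change was 0.63 ± 0.14 (limma, adjusted p = 0.0365; 4.75% of all genes rose) and 0.79 ± 0.17 at 4.5 (limma, adjusted p = 0.0416). The mean-dose call held in 6 of 18 alternatives (limma, adjusted p 0.0202 to 0.141). It was lost on the values as deposited (limma, adjusted p = 0.0612), where no keratin rose, and without any 1 array other than nicotine 1.5 replicate 1.

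The other upper layer keratins of epidermis were above 0 and not called. Krt80, a keratin of upper layers with low filament content, was at 34.9 and 22.9 in saline, 147 and 91.1 at 1.5, 56.95 and 31.3 at 3.0, and 30.9 and 83.6 at 4.5. Its mean change of 0.96 ± 0.35 had an adjusted p of 0.117 (limma). Krt78, Krt79 and Krt77 were at 0.38, 0.28 and 0.19. Krt2, of the uppermost epidermal layers, was below the filter, at 2.37 to 9.16.

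No keratin of mucosa or cornea was called. Krt4, the type II keratin of soft mucosa such as tongue and oesophagus, read 57.8 and 83.6 in saline, 117 and 87.9 at nicotine 1.5, 125 and 36.0 at 3.0, and 28.1 and 64.3 at 4.5. Krt13, its type I partner, ranged from 3.33 to 48.6. Krt12, known from the cornea, read 19.6 and 16.7 in saline, 81.1 and 21.5 at 1.5, 20.7 and 23.2 at 3.0, and 22.1 and 27.4 at 4.5. Mean changes were 0.11 for Krt4, -0.41 for Krt13 and 0.49 for Krt12, and the sign of Krt4 turned on the values as deposited (-0.025).

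Keratins of activated epithelium and appendages followed nicotine 1.5 replicate 1. Krt6b, a type II keratin of wounds and of nail and tongue, read 277 there against 5.42 to 14.8 in the other arrays. Its log2 level was 8.30 there and 4.43 to 4.96 elsewhere, against a filter level of 4.94. Krt6b thus passed the filter only through that array. Krt16, below the filter by its mean, read 77.3 there and 4.28 to 17.2 elsewhere. Krt17, its relative in appendages, read 91.3 and 31.2 in saline, 157 and 37.2 at nicotine 1.5, 56.6 and 61.6 at 3.0, and 27.2 and 48.1 at 4.5. Krt6a was at 68.2 on that array and at 25.5 to 37.6 elsewhere. Mean changes of Krt6b, Krt17 and Krt6a were 0.26, 0.13 and 0.30, none of them called. Krt6a with Krt6b, and Krt14 with Krt16 and Krt17, are close relatives whose probes could cross-detect, and 1 probe set named for both Krt17 and Krt14 was left out.

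In the same subgroup Krt23 and Krt42 had mean changes below 0. Krt23, a type I keratin induced in several epithelia, read 63.1 and 143 in saline, 225 and 23.6 at nicotine 1.5, 22.1 and 22.8 at 3.0, and 1.70 and 11.5 at 4.5. Its mean change of -1.23 ± 0.69 was not called (limma, adjusted p = 0.266), and without nicotine 1.5 replicate 1 it was -1.70. Of 19 alternatives Krt23 passed only in that fit, which leaves 1 array at that dose, and no fall is read from it. Krt42, a relative of Krt17, read 217 and 257 in saline, 148 and 147 at 1.5, 155 and 172 at 3.0, and 157 and 136 at 4.5. All its nicotine arrays lay below saline, and the change of -0.47 ± 0.15 was not called (limma, adjusted p = 0.0872). The other Krt42 probe set was below the level filter (3.21 to 9.20).

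**Figure D4:**
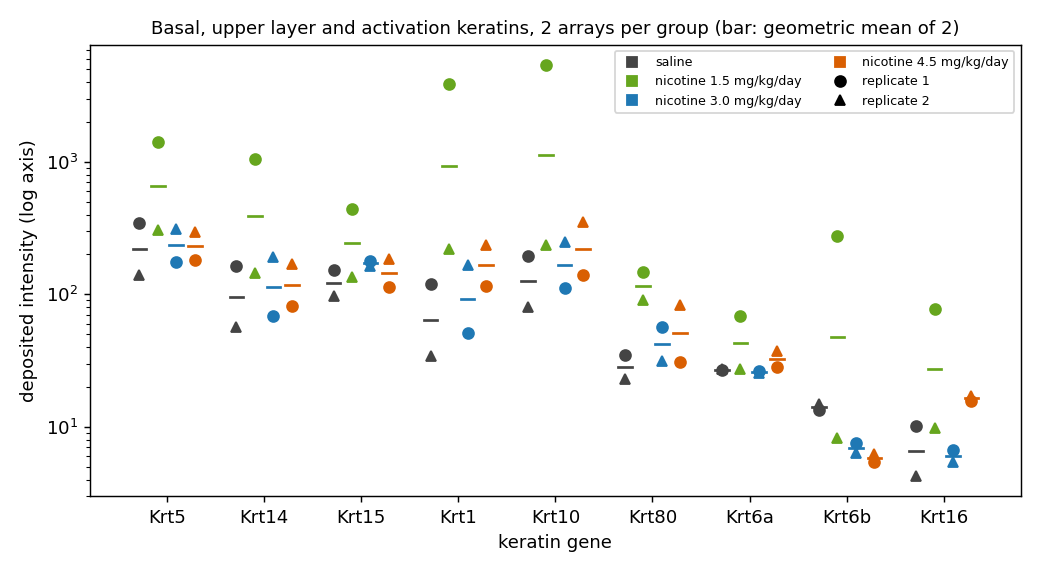
Deposited intensity (log axis) of basal, upper layer and activation keratins by dose group, with a symbol for each array (circle for replicate 1, triangle for replicate 2) and a bar at the geometric mean of 2. The circle of nicotine 1.5 is the top symbol for every gene shown, for Krt1 at 3884 against 236.5 or less elsewhere.

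Partners of stratified keratins were high on the same array. Cornified envelope genes (25 measured) summed to 18209 in nicotine 1.5 replicate 1 and to 1435 to 3977 elsewhere. Of 21 tested, 1 rose, a share close to the 4.75% of all genes: the caspase Casp14 (0.74; limma, adjusted p = 0.0438), while the filament aggregator Flg, Sbsn and Sprr1a were at 1.83, 1.55 and -1.02. Desmosome genes, which anchor keratin filaments at cell contacts, summed to 6376 there and to 453 to 2666 elsewhere. Of 12 tested, 2 fell, beside 5.4% of all genes. These members, Dsg2 and Dsc2, cadherins that simple epithelium also uses, were at -2.75 and -2.63 (limma, adjusted p 0.00407 and 0.0118), while Jup and Dsp were at 0.69 and -0.84. Dsg2 read 417 and 416 in saline and 13.8 to 132 in the nicotine arrays.

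Filament linkers and hemidesmosome genes had 0 of 16 called (limma), beside 10.2% of all genes. Their median change was 0.20, with Dst, Plec, Lad1 and Macf1 at 0.68, 0.82, -1.94 and 0.34. Among 12 regulators of stratified epithelium 1, Grhl2, fell, by 0.86 (limma, adjusted p = 0.0205), beside 5.4% of all genes. Ovol2, Hopx and Tfap2a were at 0.55, 1.03 and 0.56. Regulator sums were 2648 in nicotine 1.5 replicate 1 and 889 to 2195 elsewhere. Of those tested, Grhl1, Grhl3, Klf4, Klf5, Tfap2a, Tfap2c and Zfp750 were highest there. Trp63, Grhl2, Hopx, Ovol1 and Ovol2 were highest on other arrays, Trp63 at 136 in saline replicate 1 against 114 in nicotine 1.5 replicate 1. Whether the tissue of nicotine 1.5 replicate 1 held more stratified epithelium was not tested. In the order saline, nicotine 1.5, 3.0 and 4.5, Pearson's r between the replicates over the 31 tested keratins was 0.91, 0.68, 0.69 and 0.90, and over all tested genes 0.89, 0.90, 0.98 and 0.95; these are correlations across genes, which are not independent replicates.

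No hair keratin was called. Of 8 tested, 0 were called by limma, beside 10.2% of all genes in the mean-dose comparison. There 0 had an unadjusted p under 0.05 (limma), beside 4179 of all 13587 genes, and the median change was 0.15 against 0.07 over all genes. Krt25, of the inner root sheath, read 162 and 26.6 in saline, 119.8 and 101 at nicotine 1.5, 117 and 109 at 3.0, and 98.3 and 51.2 at 4.5. Krt73, another root sheath keratin, read 45 and 17.0, 49.7 and 32.5, 47.3 and 42.4, and 24.4 and 17.2. In both genes the saline replicates spanned most of the range of the nicotine arrays, and the changes were 0.45 and 0.24. Without saline replicate 1 Krt25 was at 1.43, and without saline replicate 2 at -0.53. Of 19 alternatives Krt25 passed only in the first of these fits. Each leaves 1 saline array, and no change is read from them.

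Among hair shaft keratins Krt81 read 56.6 and 69.5 in saline, 64.2 and 68.3 at nicotine 1.5, 70.7 and 74.1 at 3.0, and 74.3 and 50.1 at 4.5. Krt35 read 52.5 and 10.2, 22.99 and 26.8, 25.9 and 27.0, and 22.1 and 11.7. Neither gene separated the groups, with changes of 0.20 and -0.06. Krt32 and Krt36, also of the hair shaft, were at -0.05 and -0.06. The root sheath keratins Krt28 and Krt72 were at 0.10 and 0.42. Hair follicle genes other than keratins had 4 of 12 above the filter and 0 called (limma), beside 10.2% of all genes. Dlx3, Tchh, Gata3 and Lef1 were at 0.42, -0.66, -0.58 and -0.12.

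The 17 keratins below the filter read 1 to 77.3. They were Krt16, Krt2 and Krt76 of the layer keratins, 12 hair keratins, and Krt222 and Krt88. Apart from Krt16, only Krt71, of the inner root sheath, reached past the 60th percentile on any array, at 40.5 in nicotine 1.5 replicate 1 and 3.70 to 22.1 elsewhere. The other hair keratins below the filter stayed at or below 22.9.

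Intermediate filament genes outside the keratin family had 13 tested members, of which 4 were called, beside 10.2% of all genes. Nestin (Nes), nuclear lamin A (Lmna) and muscle desmin (Des) rose by 1.05, 0.94 and 0.79, and nuclear lamin B1 (Lmnb1) fell by 1.30 (limma, adjusted p 0.0186, 0.0258, 0.0351 and 0.0318).

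Counted by dose, 1 of 31 keratins was called at 1.5 (Krt20), beside 2.48% of all genes. At 3.0 it was 2 (Krt8 and Krt20), beside 3.73%, and at 4.5 it was 4 (Krt8, Krt19 and Krt20 fell, Krt24 rose), beside 6.93%. For the mean of the doses it was 5, beside 10.2%. All doses share the same 2 saline arrays, so these comparisons are not independent. With values as deposited the mean-dose count was 4, all of them falls, beside 1272 of 13594 genes called. The share of falls among all called genes was then 72.8%, against 53.2% after quantile normalization. That scaling also moved the median change of all genes at 4.5 from 0.06 to -0.06.

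**Figure D5:**
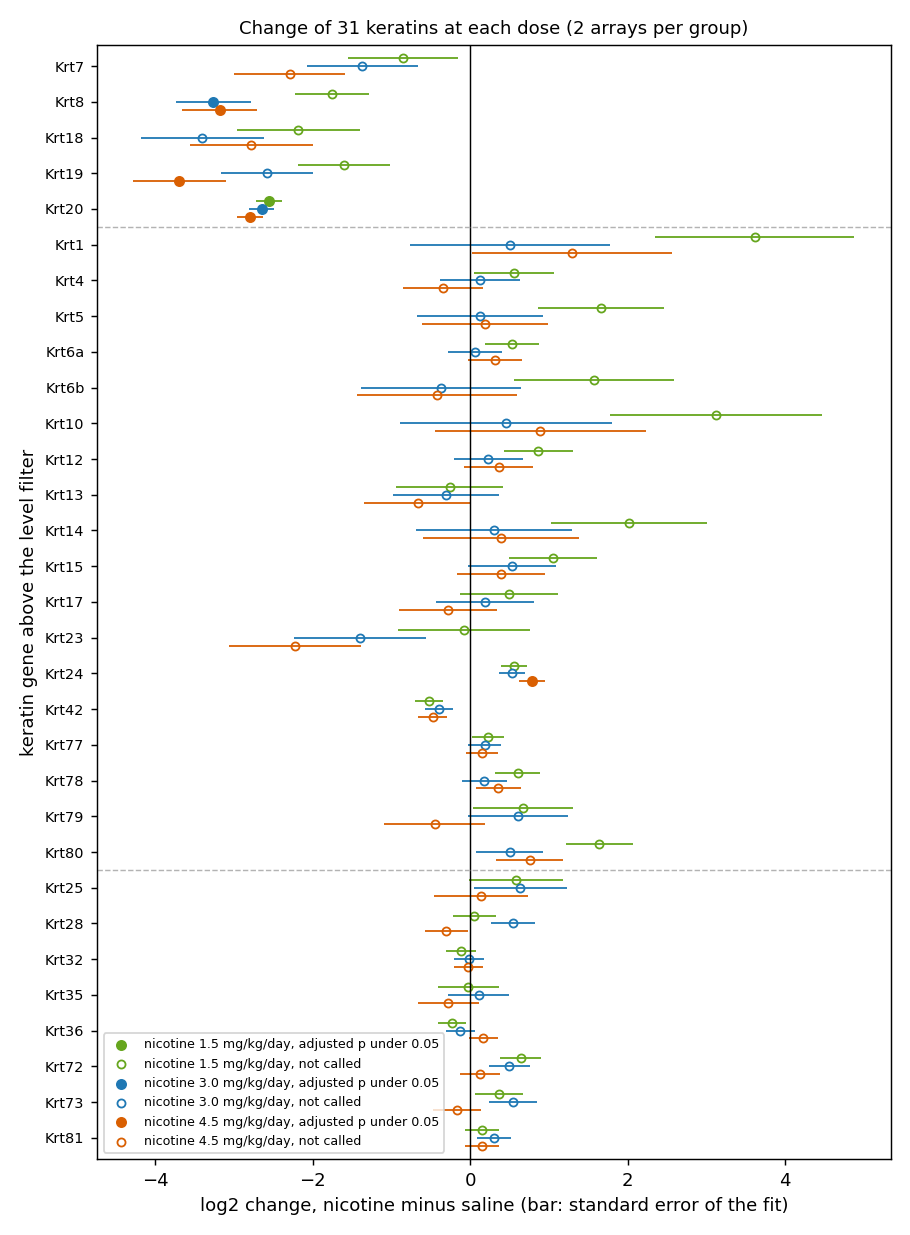
Change of each of the 31 tested keratins at each dose against saline (log2, nicotine minus saline; bars are standard errors of the fit; filled symbols have an adjusted p under 0.05). The 5 simple epithelial keratins at the top lie left of 0 at every dose; Krt1 at nicotine 1.5 lies farthest right (3.61 ± 1.27, not called).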

How the data were processed

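The authors deposited linear intensity values of 45101 probe sets for each of 8 Affymetrix arrays. Their summarization and scaling are not given in the sources used here. Genes were named from the platform annotation: 34958 probe sets name 1 gene, and 34754 of these matched the RefSeq table. Keratins came from 61 probe sets naming 1 gene, 39 of the 48 having only 1. Values were taken as log2(intensity + 16), which understates folds of weakly read genes, and quantile normalized, since array medians differed by 0.17. Genes under the 40th percentile (log2 level 4.94) were left out, which left 13587, 74.7% of all.

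Group means over all 8 arrays were fitted with limma 3.58.1 in R 4.3.3 (4 residual, 6.85 total degrees of freedom). Each dose and the mean of the doses were compared with saline, with a slope over dose and an F test, all two-sided. P-values were adjusted by Benjamini-Hochberg over all tested genes. On simulated data with 13587 genes, 200 of them changed, the mean-dose comparison recovered 38.2%, 82.1% and 93.8% of 2-, 4- and 8-fold changes, and 6.40% of its calls were false. In the comparison of nicotine 1.5 with saline these were 20.9%, 72.1%, 87.9% and 5.02%. Each simulated gene varied independently, whereas organ and epithelial genes moved together on the real arrays. The simulated shares are therefore not error rates of these data.

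Keratins above the filter are named with a value. Called keratins and the 2 with the highest mean level in each group and subgroup are given array by array, and those below the filter are named if above the 60th percentile on any array. From each of 14 gene lists (198 genes, 183 measured) up to 4 tested members with the smallest p are named. The keratins and lists were chosen with earlier results of these data known. Alternatives were other scalings, added constants of 1 and 64, other filters, the mean of all probe sets, array weights, an intensity trend, the replicate block and leaving out arrays. The number of arrays limits the precision, and 0 columns of values were left unused.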

Additional observations from a re-analysis of the deposited data

Results flagged for a closer look

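Some keratin probe sets that were left out of the tests, being below the level filter or not the one chosen for their gene, read far higher on 1 nicotine array than on either saline array. In each case the array was nicotine 1.5 replicate 1. Krt14 read 452.79 there against 54.27 in the higher saline array. Krt6a read 184.91 against 35.63 by one probe set and 50.41 against 11.02 by the other. Krt12 read 104.14 against 6.76, and Krt17 read 56.05 against 14.7. Krt16, below the filter with its single probe set, read 77.28 against 10.07. Groups of 2 arrays are too small for a test of single outlying arrays.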

How the results depend on the processing

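The fall of Krt8 over the mean of the doses held in all 19 alternatives and that of Krt20 in all 18 that tested it, at each dose too for Krt20, while Krt18 held in 9 of 19, Krt19 in 13 of 19 and Krt24 in 6 of 18. The number of keratins called over the mean of the doses was 5 of 31, beside 1380 of 13587 genes. It was 3 of 18 with the filter at the 60th percentile (1300 of 10581 genes) and 2 of 31 with array weights (621 of 13587 genes). At nicotine 1.5 the count (1, beside 337 genes) was 0 with the stricter filter (286 genes). At 3.0 the count (2, beside 507 genes) was 1 with the stricter filter (395 genes). At 4.5 the count (4, beside 941 genes) was 2 with the stricter filter (845 genes) and 1 with array weights (441 genes). For the slope the count (2, beside 109 genes) was 0 with arrays centred on their medians, where 2 genes were called. It was also 0 with an added constant of 64, no filter, the mean of all probe sets or array weights, where 1 gene each was called. With an intensity trend it was 1 (78 genes). For the F test the count (2) was 1 with an added constant of 1, with no filter, with the stricter filter, with the mean of probe sets and with array weights, 9 without the arrays highest in liver genes, and 1 to 7 with 1 array left out. Krt20 and Krt24 (mean log2 levels 5.66 and 5.25) lay under the stricter filter (5.74) and were not tested there. The lower counts with that filter come from leaving them out. Apart from the F test, counts with arrays left out are not given, since such fits leave 1 array in a group. The F test counts with arrays left out rest on such fits too, and no difference is read from them. The causes of the other shifts were not tested.

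The labels state no pairing by replicate number. Same-numbered deviations from the group means correlated between -0.22 and 0.33 (saline with nicotine 1.5) over the pairs of groups. These correlations across genes cannot show whether samples were paired. With the replicate block the counts were 3 for the mean of the doses, 1, 2 and 3 for the single doses, 0 for the slope and 1 for the F test. Over all genes they were 849, then 157, 278 and 522, then 0 and 147.

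Signs of 10 uncalled keratins turned in the mean-dose comparison. Without the arrays highest in liver genes the changes were 0.13 for Krt13, -0.084 for Krt17, -0.47 for Krt25, -0.26 for Krt28, 0.0084 for Krt32, 0.029 for Krt36 and -0.029 for Krt73. With 1 array left out at a time they ran from -0.39 (without saline replicate 2) to 0.66 for Krt17, -0.53 to 1.43 for Krt25, -0.28 to 0.48 for Krt28, -0.67 to 0.54 for Krt35, -0.14 to 0.37 for Krt4, -0.12 to 0.61 for Krt73 and -0.25 to 0.80 for Krt79, the extremes being the fits without 1 of the saline arrays. Krt35 was at 0.011 with an added constant of 1, and Krt4 at -0.025 on the values as deposited.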
